A study of Mus musculus with 4 samples.

Results

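Zbtb16, Tbx21, Eomes, Hopx, Gata3, Zbtb7b, Rora and Maf encode transcriptional regulators that mark or direct the subsets of invariant natural killer T (iNKT) cells, and these 8 genes, of 53715 gene IDs in the count table, were followed across the series. They were taken as a list of names, chosen with earlier results of these data known, and matched by mouse symbol to Ensembl IDs. All 8 were found and passed the filter on low counts. Live thymic iNKT cells, gated as 7AAD-negative, CD1d tetramer-positive and TCRβ-positive, were sorted from C57BL/6 mice aged 6 to 8 weeks and profiled by bulk RNA sequencing with Smart-seq2, which copies whole transcripts and leaves the strand unmarked. The 4 libraries fall into 2 groups of 2, Mettl3fl/flCD4-cre (Mettl3 KO) and WT. In Mettl3 KO mice a floxed gene for METTL3, the catalytic subunit of the m6A writer of mRNA, is cut by Cre under Cd4 control, which acts from the CD4+CD8+ thymocyte stage. No Cre-only or floxed-only control is described in the labels. Nor do they state that each library is a different mouse, and the p-values therefore reflect a spread between libraries that may be technical. Total counts were 25402792 and 24374587 in Mettl3 KO, against 28316016 and 25931610 in WT.

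As background, iNKT cells are T cells with a semi-invariant receptor for lipids on CD1d. PLZF, the product of Zbtb16, gives them their innate-like effector state, after which they divide into interferon-γ-producing NKT1 cells with high T-bet, interleukin-4-producing NKT2 cells with high GATA3 and PLZF, and interleukin-17-producing NKT17 cells that use ROR-family receptors and c-MAF. Thymic iNKT cells of C57BL/6 mice are mostly NKT1. In bulk RNA, fewer cells of a subset and less RNA per cell cannot be told apart.

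RefSeq promoter windows on GRCm38.p6, from 250 bases before to 50 bases after the start of a transcript, were held for 6 of the 8 genes, 8 windows in all. The 3 windows that carry CAGCTG, the E-box read by E proteins, are shown 5′ to 3′ with that motif in capitals. They belong to Tbx21 (chr11:97115282-97115581, minus strand), Gata3 (chr2:9878551-9878850, minus strand) and the outer of the 2 Hopx windows (chr5:77115074-77115373, minus strand).
Tbx21: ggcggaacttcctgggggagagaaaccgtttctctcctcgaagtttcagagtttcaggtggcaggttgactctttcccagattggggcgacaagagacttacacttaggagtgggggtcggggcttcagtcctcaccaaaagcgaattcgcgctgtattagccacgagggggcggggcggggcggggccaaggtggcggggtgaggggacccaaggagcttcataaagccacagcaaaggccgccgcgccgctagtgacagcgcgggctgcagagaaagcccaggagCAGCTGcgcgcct
Gata3: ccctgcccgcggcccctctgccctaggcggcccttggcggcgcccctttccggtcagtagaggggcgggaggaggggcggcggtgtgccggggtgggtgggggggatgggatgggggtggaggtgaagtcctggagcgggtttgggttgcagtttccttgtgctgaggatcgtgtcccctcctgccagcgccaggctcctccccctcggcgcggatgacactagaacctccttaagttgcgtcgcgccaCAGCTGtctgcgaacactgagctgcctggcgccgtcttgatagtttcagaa
Hopx: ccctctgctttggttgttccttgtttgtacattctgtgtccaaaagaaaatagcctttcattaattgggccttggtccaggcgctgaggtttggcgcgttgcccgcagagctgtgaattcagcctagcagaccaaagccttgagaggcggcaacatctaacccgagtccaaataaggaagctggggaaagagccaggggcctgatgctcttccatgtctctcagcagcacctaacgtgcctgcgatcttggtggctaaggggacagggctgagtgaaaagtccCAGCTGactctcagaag
The motif, which reads the same on both strands, begins 37 bases after the start base in Tbx21, 1 base before it in Gata3 and 33 bases after it in Hopx. It is held by 16.3% of all 32851 promoter windows. GC content of these 3 windows is 62.0%, 67.3% and 53.0%. The GC box GGGCGG, searched on both strands, lies in 4 of the 8 windows (Tbx21, Gata3 and both Zbtb7b windows) and in 35.7% of all windows. The T-box core TCACACC was found on neither strand of the 8 windows, against 3.98% of all windows. The same held for the GATA site AGATAA, which 11.2% of all windows hold. Also searched were the ETS site AGGAAGT (2 of the 8 windows, 9.35% of all), the RUNX site TGTGGT (1, 16.8%) and TATAAA (0, 13.6%). These matches describe the letters of the windows and say nothing of binding.

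Of the 8 genes, 1 passed the test between genotypes: Tbx21 fell in Mettl3 KO. The other 7 did not pass. Zbtb16, Zbtb7b, Rora and Eomes had higher values in both Mettl3 KO libraries than in either WT library, Hopx had lower values in both, and Gata3 and Maf were the 2 members with the smallest log2 fold changes. Over the whole table, 368 of 14185 tested genes passed (2.59%), of which 154 were higher (1.09%) and 214 lower (1.51%) in Mettl3 KO, in edgeR's quasi-likelihood test at an adjusted p (Benjamini-Hochberg) under 0.05. No member was called higher by edgeR or limma voom, against 4 at an unadjusted p under 0.05 and 3 by DESeq2. At that unadjusted p 2 members were lower. Over all 14185 tested genes, 2870 had an unadjusted p under 0.05 in edgeR in either direction. By DESeq2, 662 genes were called higher and 671 lower. The libraries of the 2 genotypes did not overlap for 7 of the 8 members, as for 50.3% of all tested genes, and for 6 of 7 without Eomes, whose direction was fixed by the filter on low counts. The members' median log2 fold change was 0.41, against 0.02 over all tested genes. It was 0.18 without Eomes, 0.17 without Mettl3 KO replicate 2 and 0.18 at a filter of 5 CPM, settings in which Eomes was not tested. Levels are given as CPM, in which counts are scaled to a common library size corrected by TMM factors.

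**Figure D1:**
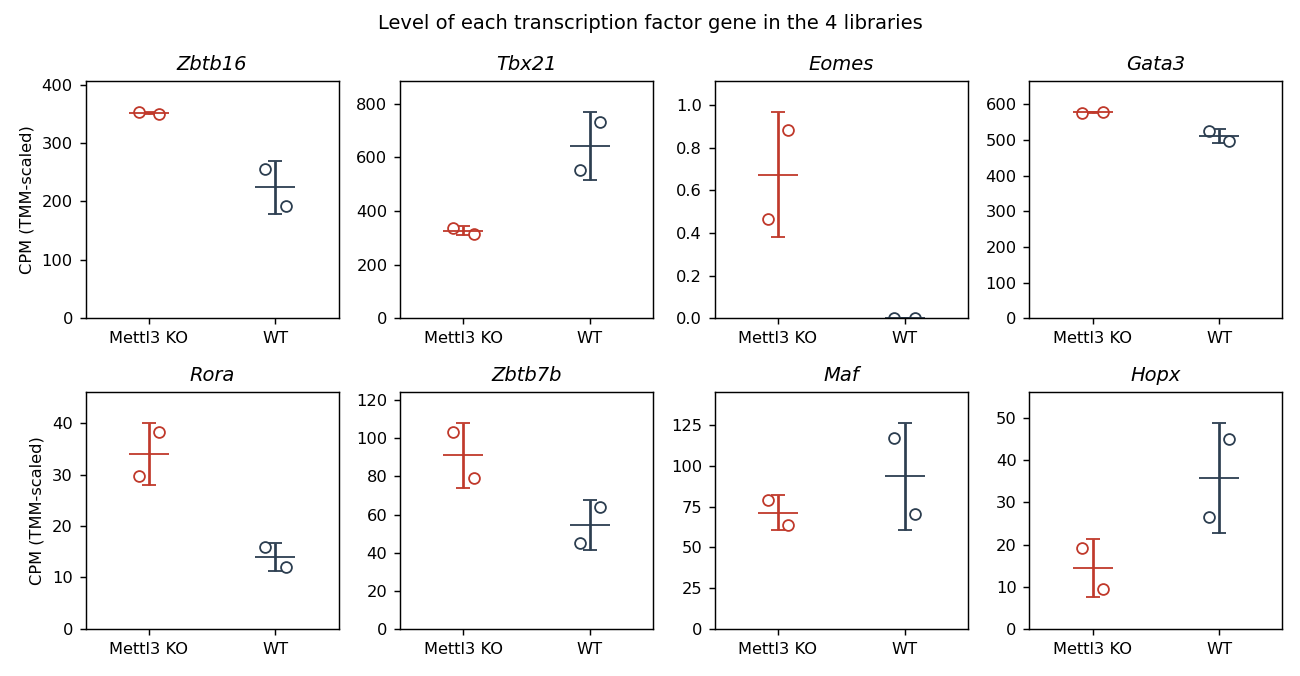
Level of each gene in CPM (vertical axes, starting at 0, with a scale of its own in each panel) in the Mettl3 KO libraries (red, left) and the WT libraries (dark, right); circles are libraries, and the bar and whiskers are the mean and SD (n = 2). Maf is the panel in which the genotypes overlap, and Eomes, in which both WT libraries are at 0, stays under 1 CPM.

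Among the factors of NKT1 cells, Tbx21, which encodes T-bet, the T-box activator of Ifng and of interleukin-15 responsiveness, was at 337.8 and 314.6 CPM in Mettl3 KO, against 552.5 and 731.7 CPM in WT. Both Mettl3 KO libraries lay close together and below both WT libraries, which differed 1.32-fold from each other. On the log2 scale Tbx21 fell by 0.98 (SE 0.14, interval at 95% -1.31 to -0.64, edgeR adjusted p = 0.0202). The call was lost without WT replicate 2 (log2 fold change -0.76, adjusted p = 0.0532), Mettl3 KO replicate 1 (-1.03, 0.114) or Mettl3 KO replicate 2 (-0.93, 0.147). Tbx21 (ENSMUSG00000001444.2; GRCm38 chromosome 11, 97098071 to 97115331, minus strand) overlaps no other annotated gene.

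Hopx, which encodes a small homeodomain protein without DNA binding that sustains effector T helper 1 cells in mice, was at 19.3 and 9.51 CPM in Mettl3 KO, against 26.6 and 45.1 CPM in WT. It had the widest spread among the members counted in both genotypes, 2.03-fold between the Mettl3 KO libraries and 1.70-fold between the WT libraries, although the genotypes did not overlap. Its log2 fold change of -1.30 (SE 0.40, 95% interval -2.23 to -0.37; edgeR adjusted p = 0.133) did not pass. The antisense gene Hopxos shares 412 exon bases with Hopx and had 37 and 9 counts in Mettl3 KO, against 8 and 30 in WT, and without strand their reads cannot be told apart.

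Eomes encodes the other T-box factor of cytotoxic lymphocytes, and it is high in natural killer cells and memory CD8+ T cells. It had 12 and 22 counts (0.466 and 0.883 CPM) in Mettl3 KO and no count in either WT library. Against a floor of 3 counts per library this is at least 5.97-fold higher in Mettl3 KO, and the gene did not pass (edgeR adjusted p = 0.187). Eomes passed the filter on low counts through the Mettl3 KO libraries alone, so it had to differ. Its antisense neighbour Gm33460, which shares 118 exon bases, had 1 and 5 counts in Mettl3 KO, against 0 and 11 in WT. Ncr1, which defines natural killer cells, was at 1.01 and 0 CPM in Mettl3 KO, against 0.782 and 2.43 CPM in WT. The part of natural killer cells in the Eomes counts was not tested.

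Zbtb16, the gene of PLZF, a zinc finger factor that is highest in early and NKT2 cells, was at 352.6 and 350.4 CPM in Mettl3 KO, against 255.5 and 192.3 CPM in WT. The Mettl3 KO libraries differed 1.01-fold from each other and the WT libraries 1.33-fold, with no overlap between genotypes. This gave a log2 fold change of 0.65 with an SE of 0.15 and a 95% interval of 0.31 to 0.99, which missed the threshold (edgeR adjusted p = 0.0658). Without WT replicate 1 it was 0.86 and passed (adjusted p = 0.0394, range over the alternatives 0.000931 to 0.278).

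Among the factors tied to NKT2 and CD4+ cells, Gata3, the zinc finger factor of type 2 responses, which T cells also need for their development, was at 576.6 and 577.9 CPM in Mettl3 KO, against 525.3 and 496.8 CPM in WT. It was the most even member, with a log2 fold change of 0.18 (SE 0.09, 95% interval -0.03 to 0.38; edgeR adjusted p = 0.326). Its interval is the narrowest of the 8, with an upper bound of 0.38 on the log2 scale.

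Zbtb7b encodes ThPOK, the zinc finger repressor that commits thymocytes to the CD4+ lineage and, in mouse iNKT cells, restrains interleukin-17 production. It was at 103.3 and 79.2 CPM in Mettl3 KO, against 45.3 and 63.8 CPM in WT. The libraries did not overlap, but the spread within each genotype, 1.30-fold in Mettl3 KO and 1.41-fold in WT, was large beside a log2 fold change of 0.75 (SE 0.22, 95% interval 0.23 to 1.27). Zbtb7b missed the threshold (edgeR adjusted p = 0.124). The antisense gene Gm15417, which shares 116 exon bases with it, had 100 and 45 counts in Mettl3 KO, against 62 and 110 in WT.

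Of the factors used by NKT17 cells, Rora, which encodes the nuclear receptor RORα of interleukin-17-producing and type 2 innate lymphocytes, was at 29.8 and 38.3 CPM in Mettl3 KO, against 15.9 and 12.1 CPM in WT. Both Mettl3 KO libraries lay above both WT libraries, and the log2 fold change of 1.27 (SE 0.28, 95% interval 0.62 to 1.92; edgeR adjusted p = 0.0629) did not pass. It is the largest positive value among the 7 members counted in both genotypes. The antisense gene Gm15511, which shares 82 exon bases with Rora, had 26 and 20 counts in Mettl3 KO, against 6 and 2 in WT, beside 767 and 955 counts of Rora in Mettl3 KO and 447 and 304 in WT.

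Maf, the gene of c-MAF, a basic leucine zipper factor required for mouse NKT17 cells and also made by macrophages and follicular helper T cells, was at 78.8 and 63.6 CPM in Mettl3 KO, against 116.8 and 70.2 CPM in WT. The genotypes overlapped, since WT replicate 2 lay between the Mettl3 KO libraries. Its log2 fold change of -0.40 had an SE of 0.26 and a 95% interval of -0.998 to 0.20 (edgeR adjusted p = 0.441), and without WT replicate 1 it was 0.01. Rora and Maf, both linked to NKT17 cells, thus had values of opposite sign.

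**Figure D2:**
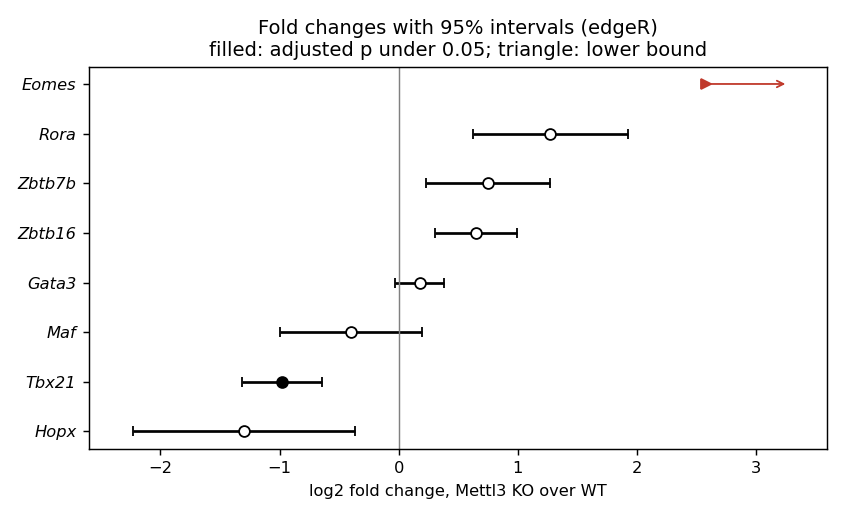
Log2 fold change of each gene, Mettl3 KO over WT (horizontal axis), with its 95% interval from edgeR; filled circles passed at an adjusted p under 0.05, open circles did not, and the triangle with an arrow is the lower bound for Eomes. Tbx21 at -0.98 is the filled circle, and the intervals of Gata3 and Maf cross 0.

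Levels of different genes were compared per kilobase of annotated exon. In Mettl3 KO the order was Gata3 (145.1 ± 0.242 CPM per kilobase), Tbx21 (131.1 ± 6.59), Zbtb16 (66.5 ± 0.304), Zbtb7b (16.3 ± 3.05), Hopx (9.49 ± 4.56), Maf (8.64 ± 1.30), Rora (2.61 ± 0.460) and Eomes (0.162 ± 0.0708; SD, n = 2 for each). In WT it was Tbx21 (258.1 ± 50.9 CPM per kilobase), Gata3 (128.5 ± 5.06), Zbtb16 (42.4 ± 8.46), Hopx (23.6 ± 8.63), Maf (11.3 ± 4.0), Zbtb7b (9.75 ± 2.34) and Rora (1.07 ± 0.206), with Eomes at 0 counts. Tbx21 and Gata3 thus stood in opposite order, with Gata3 first in Mettl3 KO and Tbx21 first in WT, and in neither genotype did the libraries of these 2 genes overlap. Hopx and Maf overlapped in Mettl3 KO, and Maf and Zbtb7b overlapped in WT, so those neighbours did not differ beyond their spread. The order in each genotype was the same when the longest annotated transcript was used as the length, a choice made after seeing the data. Tbx21 stood above 97.7% of tested genes in Mettl3 KO and above 99.0% in WT, and Rora above 39.3% and 26.4%.

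A ratio of 2 genes within a library does not depend on library scaling, and 8 such ratios were computed from counts with 0.5 added. There were 0.586 and 0.544 Tbx21 reads per Gata3 read in Mettl3 KO, against 1.05 and 1.47 in WT, a difference of -1.14 on the log2 scale. For Tbx21 over Zbtb16 the ratio was 0.958 and 0.898 in Mettl3 KO, against 2.16 and 3.81 in WT, a log2 difference of -1.63. Reads of the 2 genes were thus nearly equal in number in both Mettl3 KO libraries, while in WT those of Tbx21 were in excess. These ratios are not corrected for gene length. Per kilobase of exon, Tbx21 stood above Zbtb16 in Mettl3 KO too (131.1 against 66.5 CPM per kilobase).

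The ratio of Tbx21 to Zbtb7b differed by -1.71 and that of Tbx21 to Rora by -2.25 on the log2 scale, with no overlap between genotypes in either. The ratio of Rora to Maf was 0.379 and 0.603 in Mettl3 KO, against 0.136 and 0.173 in WT, a log2 difference of 1.64, and that of Zbtb16 to Gata3 differed by 0.49. Tbx21 over Maf (-0.61) and Hopx over Tbx21 (-0.39) overlapped between genotypes. The exact two-sided permutation test gave p = 0.333 for the 6 ratios without overlap, the smallest p that 2 against 2 libraries allow (0.444 after Benjamini-Hochberg adjustment over 8), and p = 0.667 for the other 2, so this design cannot pass the threshold.

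**Figure D3:**
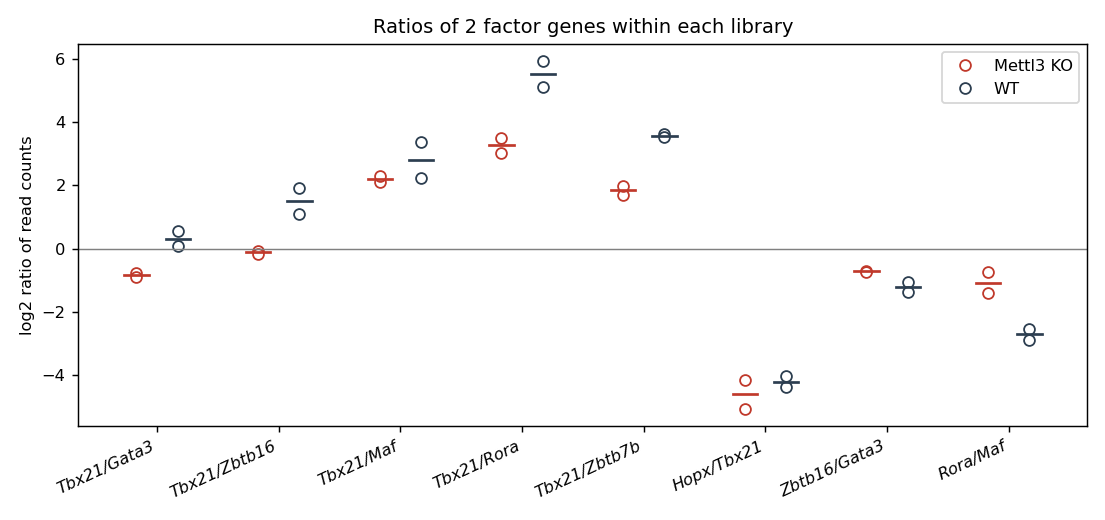
Log2 ratio of the read counts of 2 factor genes within each library (vertical axis) for 8 pairs; circles are libraries and lines their means, with Mettl3 KO (red) left of WT (dark) in each pair. The Tbx21/Zbtb16 ratio lies just under 0 in Mettl3 KO and at 1.11 and 1.93 in WT.

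The 2 WT libraries differed from each other in these genes too. WT replicate 2 had more Tbx21, Hopx and Zbtb7b than WT replicate 1 and less Zbtb16, Gata3, Rora and Maf. The summed level of 19 genes associated with T-bet in NKT1 cells was 2631 and 2552 CPM in Mettl3 KO, against 5228 and 7180 CPM in WT replicates 1 and 2. As a ratio of the higher to the lower library, the Mettl3 KO libraries were closer to each other in Tbx21, Zbtb16, Gata3, Rora, Zbtb7b and Maf than the WT libraries were, while in CPM the SD was larger in Mettl3 KO for Rora (6.02, against 2.69 in WT) and also for Zbtb7b.

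Genes known to accompany each factor were read from lists of textbook associations. These lists, and those of naive T cell genes and regulators, were chosen with earlier results of these data known. Their counts are therefore no independent evidence of direction. Of the 19 genes associated with T-bet in NKT1 cells, 15 fell, 0 rose, and all 19 had negative log2 fold changes with a median of -1.91, so that 4 did not pass. Ccl3 and Ccl4, both among these 4, passed the filter on low counts through the WT libraries alone, and without them 15 of 17 fell, with a median of -1.91. By the other counts of rises, edgeR gave 0 at an unadjusted p under 0.05 and DESeq2 and limma voom gave 0. For falls these counts were 16, 15 and 10, and edgeR with replicate number as a block called 4. Ly6c2, a surface antigen of memory-like T cells, was at 18.9 and 32.1 CPM in Mettl3 KO, against 546.6 and 573.2 CPM in WT (log2 fold change -4.46; edgeR adjusted p = 0.000799). Klrd1, the CD94 receptor gene, had a log2 fold change of -2.35 and Nkg7, a granule membrane gene, -1.69 (edgeR adjusted p = 0.00213 for both). Of the genes that did not pass, Il2rb, the interleukin-2 and interleukin-15 receptor chain gene, had -0.38 and Txk, a Tec-family kinase gene, -0.33. The list shares genes with those already known to fall in these libraries, so its count is no independent evidence of direction. Beside it, 3 of 5 tested natural killer cell markers fell, with a median log2 fold change of -1.60 and a summed level of 253.6 and 251.2 CPM in Mettl3 KO, against 719.4 and 830.5 CPM in WT. Most of that sum is Klrb1c, which the T-bet list also holds, and Cd7. Fcer1g, a signalling adaptor gene, fell too, at 8.67 and 9.75 CPM in Mettl3 KO, against 27.9 and 32.4 CPM in WT (edgeR adjusted p = 0.0311, lost on the removal of any library, 0.0763 to 0.173), Itga2 had a log2 fold change of -1.41 (0.142), and Ncr1 and Tyrobp reached at most 2.43 and 0.557 CPM in any library. The part of natural killer cells in these values was not tested. The count of 15 was 5 without either Mettl3 KO library, 7 without WT replicate 2 and 14 without WT replicate 1.

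Of 11 tested genes associated with GATA3 in NKT2 cells, 2 rose and 0 fell, with a median log2 fold change of -0.06. At an unadjusted p under 0.05 edgeR had 5 higher and 2 lower, DESeq2 called 4 and 1, and limma voom 1 and 0. Il6ra, an interleukin-6 receptor gene, was at 113.1 and 123.5 CPM in Mettl3 KO, against 40.2 and 30.9 CPM in WT (log2 fold change 1.73; edgeR adjusted p = 0.0068), and Ccr4, a chemokine receptor gene, had a log2 fold change of 0.97 (adjusted p = 0.0458). Il6ra did not pass without Mettl3 KO replicate 1 or 2 (adjusted p = 0.0528 and 0.0638), and Ccr4 lost its call whichever of the 4 was dropped (0.0707 to 0.233). Il4, the cytokine gene of the subset, was at 33.4 and 20.1 CPM in Mettl3 KO, against 16.5 and 11.5 CPM in WT (log2 fold change 0.93; edgeR adjusted p = 0.195). Of the 11 genes 5 had positive and 6 negative log2 fold changes. The negative ones include Il1rl1 (-3.19, edgeR adjusted p = 0.138) and Plac8 (-0.64, 0.0977), neither of which passed. The count of 2 was 0 without either Mettl3 KO library and 1 without either WT library.

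Of 14 tested genes associated with c-MAF and RORα in NKT17 cells, 8 fell and 0 rose, with a median log2 fold change of -2.16, which was the same with Il17a at its bound. No gene was higher at an unadjusted p under 0.05 by edgeR, by DESeq2 or by limma voom. For falls these counts were 10, 10 and 7, and edgeR with replicate number as a block called 3. Sdc1, the syndecan-1 gene, was at 11.4 and 16.2 CPM in Mettl3 KO, against 85.0 and 85.6 CPM in WT (log2 fold change -2.63; edgeR adjusted p = 0.00342). The gene of the kinase BLK, Blk, stood at a log2 fold change of -3.09 (adjusted p = 0.00465) and Itgae, the αE integrin gene, -1.49 (adjusted p = 0.00558, and 0.0508 without Mettl3 KO replicate 2). Ccr6, the chemokine receptor gene of NKT17 cells, had 1 and 0 counts in Mettl3 KO, against 375 and 160 counts in WT, and passed (edgeR adjusted p = 0.0475), a call lost on the removal of any library (0.0834 to 0.167). Il17a, the signature cytokine gene, had no count in either Mettl3 KO library, against 23 and 49 counts in WT, which is at least 11.7-fold lower for a floor of 3 counts per library, and it did not pass (adjusted p = 0.155). Ccr6 and Il17a passed the filter on low counts through the WT libraries alone, so they had to differ; without them 7 of 12 fell, with a median of -1.70. Of the 14 genes 2 had positive log2 fold changes, and 1 of them, Il17f, the cytokine gene next of kin to Il17a, had 23 and 27 counts in Mettl3 KO, against 14 and 0 in WT (edgeR adjusted p = 0.454). Ccr6, Il17a and Il17f were named after their values were seen. Rora and Maf, set beside these genes, had log2 fold changes of 1.27 and -0.40 and did not pass. The count of 8 was 4 and 2 without Mettl3 KO replicates 1 and 2, and 5 without either WT library.

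Of 8 genes linked to ThPOK and the choice between CD4 and CD8, 0 passed with edgeR, and the median log2 fold change was 0.43. At an unadjusted p under 0.05 edgeR had 5, while DESeq2 called 5 and limma voom 0. Over all 14185 tested genes, 2870 had such an unadjusted p, and DESeq2 called 1333. Cd4 had a log2 fold change of 0.49 (edgeR adjusted p = 0.0561), Cd8a 0.89 (0.0734) and Runx3, which ThPOK opposes in CD4+ cells, -0.81 (0.0607). Markers of CD4+CD8+ thymocytes stood beside them, with a summed level of 608.7 and 566.0 CPM in Mettl3 KO, against 302.7 and 406.4 CPM in WT. Their median log2 fold change was 0.60. Of these 7 markers 0 passed with edgeR, 4 were higher at an unadjusted p under 0.05, and DESeq2 called 4 and limma voom 0. The list shares Cd8a and Cd8b1 with the ThPOK list, and without them its sum was 300.1 and 252.9 CPM in Mettl3 KO, against 152.1 and 187.0 CPM in WT, with a median of 0.51. Among its other genes, Rag1, a recombinase gene, was at 114.0 and 90.3 CPM in Mettl3 KO, against 49.2 and 59.9 CPM in WT (edgeR adjusted p = 0.0556), and Dntt, the terminal transferase gene, at 155.3 and 121.3 CPM in Mettl3 KO, against 76.8 and 99.2 CPM in WT (0.117). Neither overlapped between genotypes, while the remaining 3, Rag2, Ptcra and Cd1d1, did. In all, 4 of the 7 markers did not overlap, beside 50.3% of all tested genes. Ptcra was at 3.07 and 3.21 CPM in Mettl3 KO, against 2.63 and 3.18 CPM in WT, and Rag2 at 14.5 and 20.9 CPM in Mettl3 KO, against 8.82 and 16.3 CPM in WT. The part of immature thymocytes in the Zbtb7b values was not tested.

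Of 8 effector genes associated with PLZF, 2 fell and 0 rose, with a median log2 fold change of -0.48, while the value of Zbtb16 itself was 0.65. Il18rap, an interleukin-18 receptor chain gene, had a log2 fold change of -1.12 (edgeR adjusted p = 0.00558) and Cd44, the memory marker and hyaluronan receptor gene, -1.14 (adjusted p = 0.00746). Both lost their call without Mettl3 KO replicate 1 (0.0673 and 0.075) or 2 (0.0713 and 0.0563). No gene of this list was higher at an unadjusted p under 0.05 by edgeR or was called so by DESeq2 or limma voom. For falls these counts were 5, 5 and 2, and edgeR with replicate number as a block called 0. Of 10 genes of naive T cells, which effector programmes usually lower, 4 rose and 0 fell, with 0 lower at an unadjusted p under 0.05 or by either other tool, and all 10 log2 fold changes were positive with a median of 0.42. They were Ccr7 (1.36), Satb1 (0.94), Lef1 (0.75) and S1pr1 (0.84), which encode a lymph node homing receptor, a chromatin organiser, an HMG-box factor and the exit receptor for sphingosine phosphate. Leaving out any 1 library kept the calls of Ccr7 and Satb1 and lost that of S1pr1 (adjusted p from 0.0962 to 0.198), Lef1 passed only without WT replicate 1, and the list count was 2 without either Mettl3 KO library or without WT replicate 2.

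**Figure D4:**
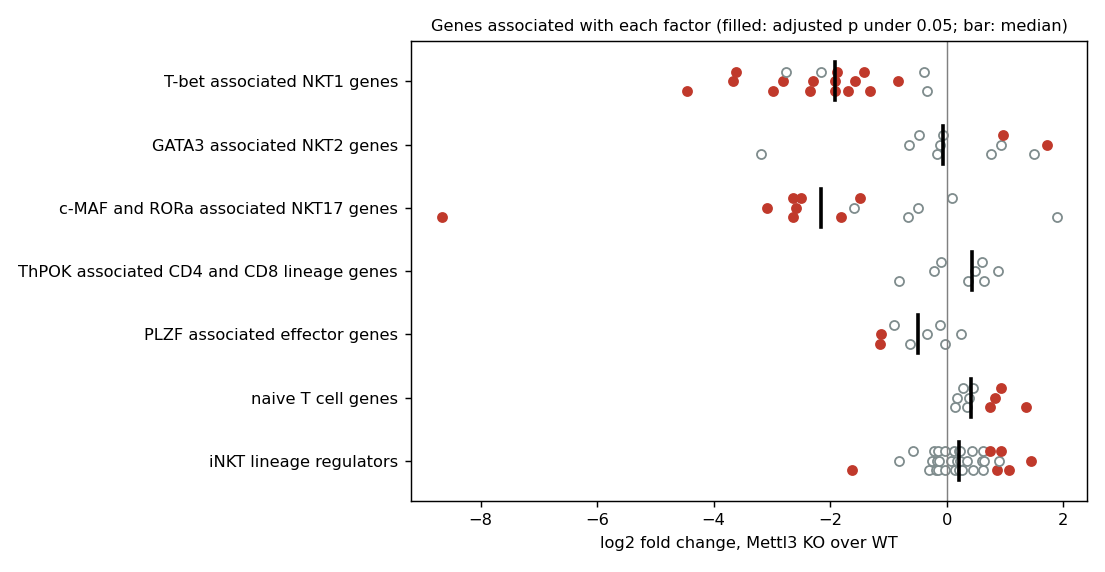
Log2 fold change, Mettl3 KO over WT (horizontal axis), of each tested gene in 7 lists (rows); filled red points passed at an adjusted p under 0.05, open points did not, and the black bar is the median of the list. Il17a, with no count in Mettl3 KO, is not drawn but counts in the median, and the leftmost point is Ccr6, with 1 count in Mettl3 KO in all. All 19 T-bet associated genes lie left of 0, with a median of -1.91, and all 10 naive T cell genes lie right of it.

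Among 35 tested regulators of iNKT development outside the 8 genes, 5 rose and 1 fell, with a median log2 fold change of 0.20. Satb1 and Lef1, among the 5, were also counted in the list of naive T cell genes, so these lists are not separate observations. Id3, an inhibitor of E proteins, was at 596.0 and 511.0 CPM in Mettl3 KO, against 286.2 and 239.5 CPM in WT (log2 fold change 1.07; edgeR adjusted p = 0.00965). Irf4, a factor induced by receptor signals, was at 78.5 and 77.8 CPM in Mettl3 KO, against 29.0 and 28.2 CPM in WT (1.45; 0.0101), and Satb1 and Egr1, an early response factor, had 0.94 and 0.87 (0.00395 and 0.0119), beside Lef1. Bhlhe40, a cofactor of T-bet in iNKT cells, fell, at 15.9 and 23.6 CPM in Mettl3 KO, against 49.6 and 72.4 CPM in WT (-1.62; edgeR adjusted p = 0.0387). Egr1 and Bhlhe40 were named after their values were seen. Irf4, Egr1 and Bhlhe40 lost their calls on the removal of any library (adjusted p from 0.0571 to 0.195), Id3 passed only without WT replicate 1 (otherwise 0.0511 to 0.0835), and Satb1 passed in every case. The count of 6 was 1 without Mettl3 KO replicate 1, Mettl3 KO replicate 2 or WT replicate 2, and 5 without WT replicate 1.

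For each member at 10 CPM or more, the genes with the most similar course over the 4 libraries were sought among 112 other genes of the lists, by Euclidean distance of log2 CPM after each gene's mean was subtracted. With 4 libraries in 2 groups such distances mostly repeat the genotype difference. Zbtb16 was nearest to Tox (distance 0.04), a factor of CD4+ and innate lymphocyte development, at 332.3 and 328.2 CPM in Mettl3 KO, against 245.8 and 178.1 CPM in WT, and then to Bcl11b (0.15). Tbx21 was nearest to Cxcr3 (0.24) and Runx3 (0.28), Gata3 to Cul3 (0.07) and Trbc2 (0.08), and Rora to Ccr7 (0.27) and Irf4 (0.40). Zbtb7b was nearest to Dntt (0.13) and Rag1 (0.21), both markers of CD4+CD8+ thymocytes, Maf to Izumo1r (0.34) and Icos (0.34), and Hopx to Sox13 (0.38) and Slamf7 (0.53).

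At the genome level the 8 genes lie on 6 chromosomes, with Zbtb16, Eomes and Rora on chromosome 9. The nearest tested protein-coding gene on each side of every member gave 16 flanking genes, a set chosen after seeing the data. With edgeR 0 of them passed, and 2 were higher and 1 lower at an unadjusted p under 0.05. That compares with 2870 of 14185 tested genes in either direction. DESeq2 called 3 of them (1333 over all tested genes) and limma voom 0. The smallest adjusted p among the 16 was that of Cdyl2, beside Maf (log2 fold change 0.60, edgeR adjusted p = 0.0556). Beside Tbx21, Tbkbp1 was at 49.4 and 44.8 CPM in Mettl3 KO, against 35.4 and 37.6 CPM in WT (log2 fold change 0.37; edgeR adjusted p = 0.335). On its other side Osbpl7 was at 44.1 and 45.9 CPM in Mettl3 KO, against 45.0 and 40.7 CPM in WT (0.07; 0.888). Both values are positive, while Tbx21 fell.

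GGACT, the commonest letters of an m6A site, was counted in the sense strand of the longest annotated transcript of each gene. Tbx21 has 5 copies (2.01 per kilobase), Zbtb7b 7 (1.62), Maf 10 (1.57), Eomes 4 (1.12), Gata3 3 (0.933), Hopx 1 (0.793), Rora 8 (0.735) and Zbtb16 3 (0.587). The members' median of 1.03 per kilobase compares with 1.01 over 14176 tested genes, whose quartiles are 0.578 and 1.49. The 3 members above the upper quartile, Tbx21, Zbtb7b and Maf, had log2 fold changes of -0.98, 0.75 and -0.40. A count of letters does not show that a transcript is methylated.

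The labels were checked against markers. Cd3e was at 570.7 and 485.9 CPM in Mettl3 KO, against 434.5 and 514.9 CPM in WT, and Traj18, the invariant joining segment, at 1.63 and 2.29 CPM in Mettl3 KO, against 3.49 and 3.34 CPM in WT. Of 8 tested T cell receptor markers, with a median log2 fold change of -0.45, 1 fell, Trac (log2 fold change -0.58; edgeR adjusted p = 0.0124), which did not pass without Mettl3 KO replicate 1 or 2 (0.114 and 0.121). Mettl3 itself was at 78.1 and 91.4 CPM in Mettl3 KO, against 92.2 and 123.6 CPM in WT (log2 fold change -0.35, edgeR adjusted p = 0.357). These counts cover the whole gene, including any exons outside the deleted part, so they check the label only weakly. How far the gene was deleted in these cells was not tested. Of 5 tested myeloid markers 3 rose (1 by DESeq2 or limma voom), with a median log2 fold change of 3.21 and a summed level of 396.2 and 450.6 CPM in Mettl3 KO, against 44.2 and 65.2 CPM in WT. Lyz2, the lysozyme gene, made up most of it. Csf1r, a macrophage growth factor receptor gene, was at 29.6 and 15.6 CPM in Mettl3 KO, against 0.854 and 0 CPM in WT (edgeR adjusted p = 0.0137), and Cd209a, a dendritic cell lectin gene, at 30.9 and 37.0 CPM in Mettl3 KO, against 0 and 1.67 CPM in WT (0.00722). Csf1r passed only without Mettl3 KO replicate 2 (otherwise 0.0750 to 0.129), and Cd209a lost its call without that library (0.0539). Both passed the filter on low counts through the Mettl3 KO libraries, and without them 1 of 3 rose, with a median of -0.14. The sum without them was still 335.8 and 398.0 CPM in Mettl3 KO, against 43.4 and 63.6 CPM in WT. Cst3 and C1qa did not pass, and C1qa was at 5.83 and 8.26 CPM in Mettl3 KO, against 7.04 and 8.48 CPM in WT. The part of myeloid RNA in the values of the 8 genes was not tested. B cell markers summed to 31.6 and 24.3 CPM in Mettl3 KO, against 7.43 and 15.8 CPM in WT, a median log2 fold change of 1.49, 0 of 4 called by edgeR, DESeq2 or limma voom, 1 at an unadjusted p under 0.05, and Pax5 at 0 counts. Gamma-delta T cell markers summed to 487.5 and 537.2 CPM in Mettl3 KO, against 579.1 and 639.6 CPM in WT, with a median log2 fold change of -0.25, 0 of 4 called by any of the 3 tools and 2 at an unadjusted p under 0.05. Of 3 tested innate lymphoid markers 1 rose, Il2ra, at 42.5 and 38.5 CPM in Mettl3 KO, against 6.69 and 14.8 CPM in WT (edgeR adjusted p = 0.0365), a call lost on the removal of any library (0.0544 to 0.174), while Il1rl1, which defines the type 2 cells that also use Gata3 and Rora, was at 0.389 and 0.281 CPM in Mettl3 KO, against 4.77 and 1.23 CPM in WT.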

How the data were processed

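The 4 libraries, 2 Mettl3 KO and 2 WT, were grouped by their titles. The deposited table holds raw read counts for 53715 versioned Ensembl gene IDs, 1 column per library, not pooled. The submitters' processing notes name FastQC 0.11.5, STAR 2.6.0a, HTSeq 0.6.1, DESeq2 1.18.1 and build mm10; what each tool was used for, and with which annotation and options, is not given in the sources used here. IDs were matched to GENCODE M21 (GRCm38): 53620 matched without the version suffix, 51464 with it, and 95 did not; where a symbol stood on several IDs the most counted was used.

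Genes were kept by filterByExpr, scaled by TMM (factors 1.01 and 1.02 in Mettl3 KO, 0.994 and 0.970 in WT) and compared with edgeR 4.0.16 (glmQLFit and glmQLFTest, robust, two-sided, no covariate, 2 residual degrees of freedom) in R 4.3.3, with Benjamini-Hochberg adjustment over 14185 genes. The script was tested on simulated data. SE is the log2 fold change over the square root of F. Between the libraries of a genotype, chi-square divided by its degrees of freedom was 28.0 in Mettl3 KO and 45.6 in WT. None was therefore a repeat sequencing of another, but these values cannot show that the libraries come from different mice. Smart-seq2 reads carry no molecular identifiers, so floors cover counting error only. DESeq2 1.42.0, limma 3.58.1 voom, other scalings and filters, a replicate block and leaving out each library were tried. All members were named, with up to 3 called genes of each other list by smallest p and 2 of the most similar genes per member; further genes shown as values for contrast were named after their values were seen. List counts without genes that 1 genotype alone carried through the filter, or that another list holds, were chosen after seeing the data. The members, lists and ratios were chosen with earlier results of these data known.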

Additional observations from a re-analysis of the deposited data

How the results depend on the processing

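Scaling by RLE or total counts, no filter and limma voom left Tbx21 as the single member called and kept the sign of every member. At 5 CPM or more in 2 libraries Tbx21, Rora and Zbtb16 passed (3 members, with 7 tested, since Eomes dropped out), and DESeq2 called 5, adding Hopx and Zbtb7b. Over all genes these 2 settings called 727 and 1333, against 368, and DESeq2 called 11 lineage regulators, against 6. With the replicate block, 33 genes, 0 members and 0 regulators passed (edgeR, 2461 genes at an unadjusted p under 0.05). Deviations of same-numbered libraries from their genotype means had a correlation of -0.01. With 2 libraries per genotype this check cannot decide whether same-numbered libraries share a batch. Leaving out 1 library gave 41 to 172 genes, 0 to 2 members and 1 to 5 regulators; Eomes was not tested without Mettl3 KO replicate 2. Across all alternatives the adjusted p ran from 1.36e-08 to 0.147 for Tbx21, 0.000931 to 0.278 for Zbtb16, 0.00284 to 0.296 for Rora, 0.0373 to 0.447 for Zbtb7b, 0.0407 to 0.429 for Hopx, 0.182 to 0.470 for Eomes, 0.207 to 0.640 for Gata3 and 0.198 to 0.986 for Maf. The sign turned for Maf (-0.72 to 0.01 over libraries left out, 0.0105 without WT replicate 1) and for the Hopx to Tbx21 ratio (-0.85 to 0.07, 0.0674 without Mettl3 KO replicate 2); the cause was not tested. Without single libraries the log2 fold change of Hopx ran from -1.91 to -0.88, that of Zbtb7b from 0.51 to 1.01, and the Tbx21 to Maf ratio from -1.18 to -0.04. With 2 libraries per genotype, a missed call does not show that a gene did not differ.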
